A study of Drosophila melanogaster with 18 samples.

Results

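The genes described here are 6 components of the hypoxia-inducible factor (HIF) pathway of Drosophila melanogaster: sima, tgo, Hph, Vhl, scyl and chrb. They were chosen by name, as the entries of the deposited expression tables that carry these 6 gene symbols, and make up 6 of the 17658 genes in each table. Their transcripts were followed in whole adult females through 6 groups of 3 libraries. Flies with ubiquitous knockdown of Tudor-SN (w;;Da-GAL4/UAS-Tudor-SN RNAi, called knockdown) and control flies (w;;+/UAS-Tudor-SN RNAi, called control) were each kept in normoxia, in 6% O2 or in 2% O2, with 6 h at low oxygen. All flies were 1 to 5 days old and raised at 25 °C on mashed potato food, and each library pooled 10 flies. Both genotypes carried the UAS hairpin transgene, while the knockdown flies alone carried the daughterless-GAL4 driver, which is active in nearly all tissues. Flies with the driver and no hairpin were not analysed here, so an effect of the driver or its background and an effect of losing Tudor-SN cannot be told apart.

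HIF is a pair of basic helix-loop-helix PAS proteins, an oxygen-labile alpha subunit, which is Sima in flies, and a stable partner, which is Tango. When oxygen is plentiful, the prolyl hydroxylase encoded by Hph (also called fatiga) marks Sima, and the Vhl protein then recruits a ubiquitin ligase that sends Sima to the proteasome. When oxygen falls, the mark is not made and Sima accumulates, enters the nucleus and activates target genes, among them Hph itself and scyl. Much of this control acts on the Sima protein, which RNA levels do not show. Scylla and Charybdis, the products of scyl and chrb, are relatives of the mammalian REDD1 protein and restrain growth through TOR signalling.

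Tudor-SN, the targeted gene, stood in the knockdown libraries at 9.28% of the control mean in normoxia, 7.33% in 6% O2 and 3.32% in 2% O2. In each of these 3 comparisons the exact two-sided permutation p was 0.1, the smallest that 3 libraries against 3 allow. The deposited FPKM (fragments per kilobase of transcript, scaled to the mapped fragments of the library) summed to between 876999 and 1000923 per library. Relative depth, read from the steps between low values, was 0.963 to 1.014 of the common level in 17 libraries and 0.875 in replicate 3 of the knockdown at 2% O2. All 7 female markers were above 1 FPKM in all 18 libraries, and all 9 matched male markers were below 1 FPKM in every library, with summed levels of 0 to 1.10 FPKM. Differences below are on the log2(FPKM + 1) scale after scaling, with the standard error (SE) of a limma fit over 9921 genes. A gene is called where its Benjamini-Hochberg adjusted p over those genes is below 0.05. In whole flies, fewer cells of a type and less RNA per cell cannot be told apart. Tudor-SN itself averaged 5.57 FPKM at 2% O2 against 19.9 FPKM in normoxia in the knockdown, and 168 against 214 FPKM in the control. Where responses to 2% O2 differ between genotypes, a deeper knockdown at 2% O2 and a different response to oxygen cannot be told apart.

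All 6 genes passed the filter of a mean of at least 1 FPKM, and their mean levels over the 18 libraries spanned 15.9 to 116 FPKM. scyl averaged 116 FPKM, above 89.4% of the tested genes. Hph averaged 107 FPKM, above 88.5% of them. chrb (37.7 FPKM), tgo (29.4 FPKM) and sima (27.8 FPKM) were close to the middle of the distribution, and Vhl was lowest at 15.9 FPKM, above 36.9% of tested genes. The order scyl, Hph, chrb, tgo, sima, Vhl held in normoxia and in 6% O2 in both genotypes. At 2% O2 sima stood above tgo in both genotypes, and Hph stood above scyl in the knockdown. The ranges of scyl and Hph overlapped in the knockdown at 2% O2 and in the control at 2% and 6% O2, as did those of sima and tgo. Within libraries at 2% O2, sima per tgo was 1.05, 1.05 and 1.19 in the knockdown and 1.01, 1.17 and 1.13 in the control. In the knockdown at 2% O2, Hph stood above scyl in replicates 1 and 3 and below it in replicate 2 (156 against 159 FPKM).

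**Figure D1:**
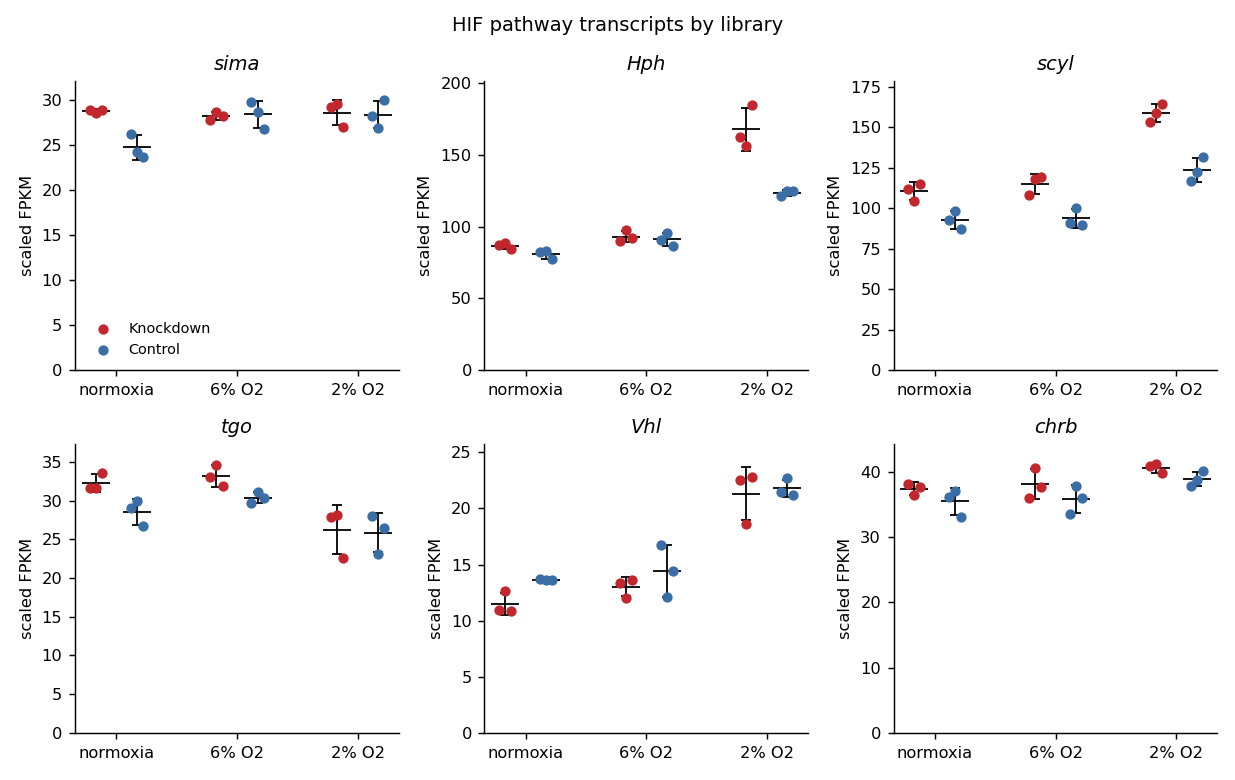
Scaled FPKM of the 6 HIF pathway genes in each library by oxygen level, with knockdown in red and control in blue; points are libraries, the long line is the group mean and the bars are 1 SD (n = 3). Hph, Vhl and scyl stand higher at 2% O2 in both genotypes, tgo stands lower in the knockdown at 2% O2, and sima is lowest in control normoxia.

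At 2% O2 Hph, Vhl and scyl rose in both genotypes, tgo fell in the knockdown, sima rose in the control and chrb was called in neither. In knockdown flies 4 of the 6 genes were called between 2% O2 and normoxia, with Hph, Vhl and scyl higher and tgo lower, where 55.4% of all tested genes were called (28.5% higher and 27% lower). In control flies 4 of 6 were called, with Hph, Vhl, scyl and sima all higher, where 30.1% of all tested genes were called (15.4% higher and 14.7% lower). The median difference of the 6 genes was 0.32 in the knockdown and 0.30 in the control, beside 0.00 and -0.01 over all tested genes. At these backgrounds the counts alone do not set the 6 genes apart, and the sizes and the libraries of each gene follow.

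sima encodes the oxygen-regulated alpha subunit and lies at 3R:30058311-30121798 (BDGP6, plus strand, 4 annotated transcripts). In knockdown flies it had 28.9, 28.6 and 28.9 FPKM in normoxia, 27.7, 28.6 and 28.2 FPKM in 6% O2, and 29.2, 29.5 and 27.0 FPKM in 2% O2. In control flies it had 26.2, 24.2 and 23.7 FPKM in normoxia, 29.8, 28.6 and 26.8 FPKM in 6% O2, and 28.3, 26.9 and 29.9 FPKM in 2% O2. The 3 libraries of control normoxia were thus the lowest of all 18, and the other 5 groups overlapped one another. In the control, libraries at 2% O2 stood wholly above normoxia ones in 21.9% of tested genes. In knockdown flies the 2% O2 difference was -0.01 (95% interval -0.13 to 0.10, limma adjusted p = 0.865), and in control flies it was 0.19 (SE 0.0541, limma adjusted p = 0.0137). The difference between these responses was -0.20 (SE 0.0766) and was not called (limma adjusted p = 0.108). The control call was lost in a fit of the compared groups alone (limma adjusted p = 0.0649), without control normoxia replicate 3 (0.0611) and without control 2% O2 replicate 3 (0.0708).

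tgo encodes the constitutive partner subunit, which also pairs with other PAS proteins, and lies at 3R:9016773-9020022 on the minus strand. In knockdown flies it had 31.6, 31.6 and 33.6 FPKM in normoxia, 33.0, 34.6 and 31.9 FPKM in 6% O2, and 27.9, 28.1 and 22.6 FPKM in 2% O2. In control flies it had 29.0, 29.9 and 26.7 FPKM in normoxia, 29.7, 31.1 and 30.4 FPKM in 6% O2, and 28.1, 23.1 and 26.4 FPKM in 2% O2. In the knockdown every 2% O2 library was below every normoxia and 6% O2 library, while in the control the 2% O2 and normoxia libraries overlapped. Knockdown libraries at 2% O2 stood wholly below normoxia ones in 30.6% of tested genes and below 6% O2 ones in 29.4%. tgo fell by 0.30 in the knockdown at 2% O2 against normoxia (SE 0.0802, limma adjusted p = 0.00516), against a difference of -0.14 in the control that was not called (limma adjusted p = 0.21). Without the shallower knockdown 2% O2 replicate 3 the knockdown difference was -0.20 (limma adjusted p = 0.0303). The responses of the genotypes differed by -0.16 (SE 0.113, limma adjusted p = 0.403). Against 6% O2, tgo was lower at 2% O2 by 0.34 on the log2 scale in the knockdown (limma adjusted p = 0.00247). In the control the same difference was -0.23 (limma adjusted p = 0.0402), a call that was lost with no expression filter (0.0588), in a fit of the compared groups alone (0.0677) and without any 1 of 5 libraries, reaching an adjusted p of 0.193 and a difference of -0.15 without control 2% O2 replicate 2. tgo and CG11986, on the opposite strand, share 50 exonic bases, and CG11986 was not called at 2% O2 in the knockdown (0.01, limma adjusted p = 0.891) or the control (-0.09, limma adjusted p = 0.322).

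Hph encodes the HIF prolyl hydroxylase, the oxygen sensor of the pathway, and lies at 3R:5257037-5269507 on the plus strand. In knockdown flies it had 86.9, 88.7 and 84.6 FPKM in normoxia, 89.6, 97.7 and 92.0 FPKM in 6% O2, and 162, 156 and 185 FPKM in 2% O2. In control flies it had 82.1, 83.1 and 77.3 FPKM in normoxia, 90.8, 95.6 and 86.7 FPKM in 6% O2, and 121, 125 and 125 FPKM in 2% O2. At 2% O2 every knockdown library was above every control library, and both sets were above all libraries at higher oxygen. Knockdown libraries stood wholly above control ones at 2% O2 in 20% of tested genes. Libraries at 2% O2 stood wholly above normoxia ones in 31.7% of tested genes in the knockdown and 21.9% in the control. Hph rose by 0.94 in the knockdown (SE 0.0576, limma adjusted p = 5.33e-09), a ratio of means of 1.93. It rose by 0.61 in the control (SE 0.0576, limma adjusted p = 2.28e-06), a ratio of means of 1.53. Hph was the only 1 of the 6 genes whose 2% O2 responses were called different between genotypes, by 0.33 (SE 0.0815, limma adjusted p = 0.0233), where 7.64% of all tested genes were called. That call was lost without control normoxia replicate 1 (limma adjusted p = 0.0549), control 2% O2 replicate 1 (0.0661), knockdown normoxia replicate 1 (0.0516) or knockdown normoxia replicate 3 (0.0592). Without knockdown 2% O2 replicate 3, the library with the highest Hph level, the difference was 0.26 (limma adjusted p = 0.043). In the same difference of responses 3 of 9 tested fat body markers and 2 of 9 gut markers were called higher and 1 of 7 female markers lower, and their part in the Hph difference was not tested. Tudor-SN RNA was also lower at 2% O2 than in normoxia, more so in the knockdown, and its part was not tested either.

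**Figure D2:**
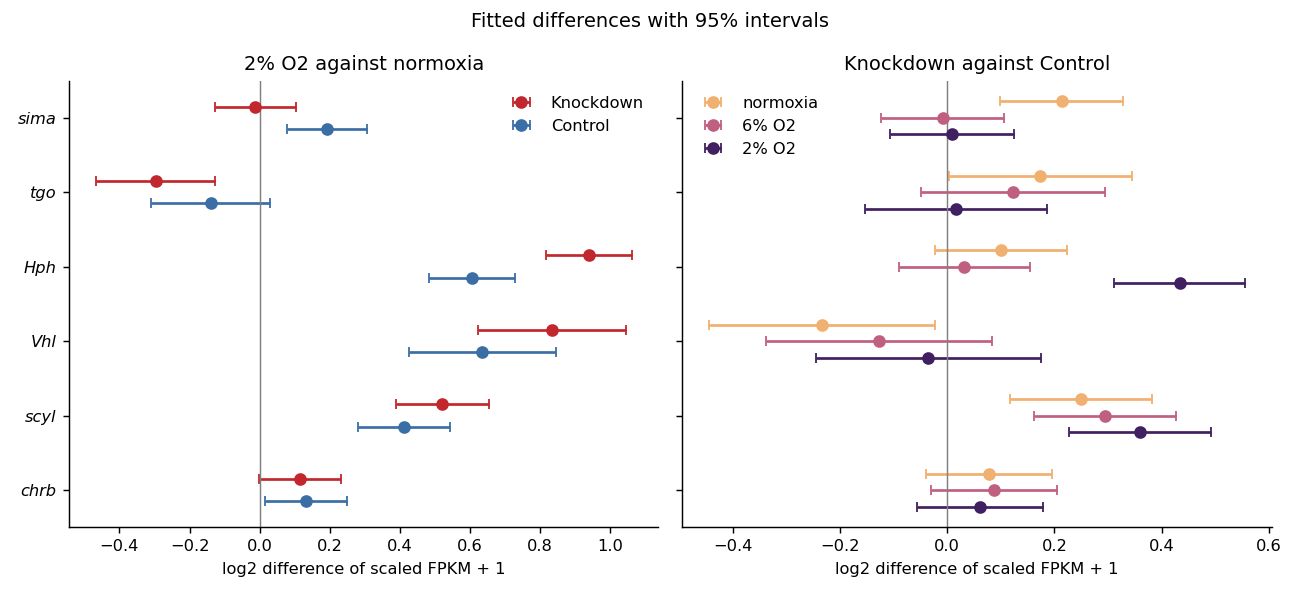
Fitted differences of the 6 genes on the log2(scaled FPKM + 1) scale with 95% intervals, at 2% O2 against normoxia by genotype (left) and for knockdown against control by oxygen level (right). The Hph interval for the knockdown at 2% O2 lies above that of the control, and the scyl intervals for knockdown against control lie above 0 at all 3 oxygen levels.

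The annotation places a single-exon pseudogene, CR45033 (3R:5269081-5269507, same strand), over the last exon of 1 of the 4 Hph transcripts. The shared 426 bases make up that exon of Hph-RB, which starts, like Hph-RA, at base 5264939, while Hph-RC and Hph-RD start at the upstream end of the gene. CR45033 had 21.4, 25.1 and 20.4 FPKM in the knockdown at 2% O2, against 1.32e-06, 8.93e-06 and 0.698 FPKM in knockdown normoxia. It had 1.90, 6.50 and 4.96 FPKM in the control at 2% O2, against 5.35e-05, 1.54e-06 and 9.70e-06 FPKM in control normoxia. At 6% O2 it was at or below 0.0493 FPKM in the knockdown and at or below 1.19 FPKM in the control. CR45033 was thus near 0 in most libraries at higher oxygen, high in all 3 knockdown libraries at 2% O2 and lower, but present, in all 3 control libraries there. On the log2(FPKM + 1) scale the 2% O2 difference was 4.28 in the knockdown and 2.34 in the control, and the responses differed by 1.94. CR45033 passed the filter of a mean of at least 1 FPKM largely through its knockdown libraries at 2% O2. These differences are therefore descriptions, and no p-value is given for them. How reads in the shared bases were assigned to Hph and CR45033 is not given in the sources used here, so the values of both are uncertain there, and CR45033 was looked at only after its values had been seen. Transcript-level values were not analysed here.

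**Figure D3:**
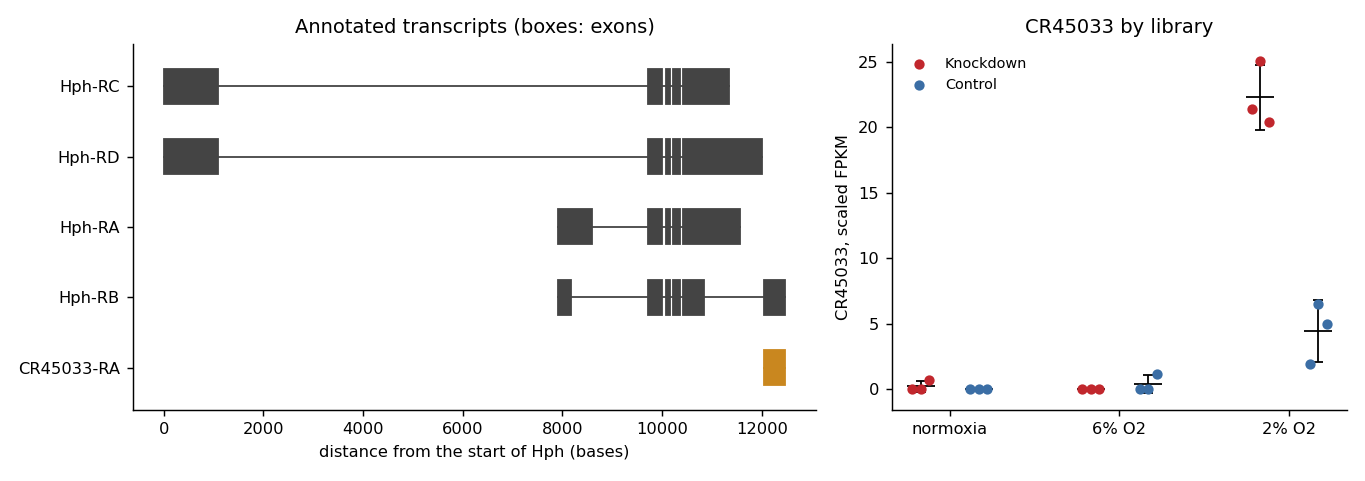
Left, the 4 annotated Hph transcripts and CR45033 by distance from the Hph start (boxes are exons, BDGP6); right, scaled FPKM of CR45033 in each library by oxygen level, with knockdown in red and control in blue, the group mean as a long line and 1 SD as bars (n = 3). CR45033 covers the last exon of Hph-RB and reached 20.4 to 25.1 FPKM in the knockdown at 2% O2, against 1.90 to 6.50 FPKM in the control at 2% O2.

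Vhl encodes the substrate receptor of the ligase that binds hydroxylated Sima, and lies at 2R:11279725-11281033 on the plus strand as a single exon of 1309 bases. In knockdown flies it had 10.98, 12.6 and 10.8 FPKM in normoxia, 13.4, 12.1 and 13.6 FPKM in 6% O2, and 22.5, 18.6 and 22.8 FPKM in 2% O2. In control flies it had 13.7, 13.6 and 13.6 FPKM in normoxia, 16.7, 12.1 and 14.4 FPKM in 6% O2, and 21.4, 22.7 and 21.2 FPKM in 2% O2. In both genotypes all 2% O2 libraries were above all libraries at higher oxygen, and at 2% O2 the genotypes overlapped. Libraries at 2% O2 stood wholly above normoxia ones in 31.7% of tested genes in the knockdown and 21.9% in the control. Vhl rose by 0.84 in the knockdown (SE 0.099, limma adjusted p = 4.31e-06), a ratio of means of 1.86, and by 0.64 in the control (SE 0.099, limma adjusted p = 0.000177), a ratio of 1.60. The responses differed by 0.20 (95% interval -0.10 to 0.50, limma adjusted p = 0.389). CG9062, on the opposite strand, shares 550 exonic bases with Vhl, and whether the libraries kept strand is not stated in the sources used here. CG9062 was not called at 2% O2 in the knockdown (-0.11, limma adjusted p = 0.18) or the control (-0.03, limma adjusted p = 0.755).

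scyl, at 3L:11252307-11256172, had the highest level of the 6 genes on average, and its protein restrains TOR upstream of the Tsc1 and gig complex. In knockdown flies it had 112, 104 and 115.2 FPKM in normoxia, 108, 118 and 119 FPKM in 6% O2, and 153, 159 and 165 FPKM in 2% O2. In control flies it had 92.9, 98.1 and 87.2 FPKM in normoxia, 91.1, 100.4 and 89.5 FPKM in 6% O2, and 117, 122 and 132 FPKM in 2% O2. At each oxygen level every knockdown library was above every control library, and within each genotype all 2% O2 libraries were above all others. Knockdown libraries stood wholly above control ones in 21.5% of tested genes in normoxia, 22.4% in 6% O2 and 20% in 2% O2. Libraries at 2% O2 stood wholly above normoxia ones in 31.7% of tested genes in the knockdown and 21.9% in the control. scyl rose at 2% O2 by 0.52 in the knockdown (SE 0.0621, limma adjusted p = 4.43e-06) and by 0.41 in the control (SE 0.0621, limma adjusted p = 0.000137). The responses differed by 0.11 (95% interval -0.08 to 0.30, limma adjusted p = 0.455).

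chrb, at 3L:11487550-11499055, lies on the same strand as scyl, 231377 bases away with 29 genes between them, and encodes the second REDD1 relative. In knockdown flies it had 38.2, 36.4 and 37.7 FPKM in normoxia, 36.0, 40.6 and 37.7 FPKM in 6% O2, and 40.9, 41.2 and 39.7 FPKM in 2% O2. In control flies it had 36.1, 37.1 and 33.1 FPKM in normoxia, 33.6, 37.8 and 36.1 FPKM in 6% O2, and 37.9, 38.7 and 40.1 FPKM in 2% O2. In both genotypes the 2% O2 libraries stood just above the normoxia libraries without overlap, as they did for 31.7% of tested genes in the knockdown and 21.9% in the control. Neither difference was called, at 0.12 in the knockdown (95% interval -0.003 to 0.23, limma adjusted p = 0.0906) and 0.13 in the control (95% interval 0.01 to 0.25, limma adjusted p = 0.086). With array weights both were called, at 0.12 in the knockdown (limma adjusted p = 0.0322) and 0.15 in the control (limma adjusted p = 0.0345). Averaged over the genotypes chrb rose by 0.12 (SE 0.0391, limma adjusted p = 0.0133), where 5 of the 6 genes were called beside 58.2% of all tested genes. That call was lost on the FPKM as deposited (0.07, limma adjusted p = 0.216).

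Marker genes of several tissues moved between 2% O2 and normoxia too. The counts below stand beside 28.5% of all tested genes called higher and 27% lower in the knockdown, and 15.4% and 14.7% in the control. Of 15 eggshell markers, which report on late egg chambers, 6 were lower in the knockdown and 4 in the control, and none was at 0 in any library. Their summed level was 244 to 3106 FPKM at 2% O2 against 1540 to 5379 FPKM in normoxia in the knockdown, and 320 to 2121 FPKM against 682 to 5188 FPKM in the control. Of 10 fat body markers, 9 of them tested, 6 were higher and 2 lower in the knockdown, and 4 higher and 1 lower in the control. Their summed level was 1424 to 1954 FPKM at 2% O2 against 1290 to 1324 FPKM in normoxia in the knockdown, and 1864 to 2016 FPKM against 1656 to 1840 FPKM in the control, with at most 1 marker at 0 in any library. Of the 9 gut and 9 eye markers, 4 and 6 were higher in the knockdown; in the control 4 gut markers were higher and 1 lower, and no eye marker was called. Of the 7 female markers 3 were higher and 1 lower in the knockdown and 1 was higher in the control. Their summed level was 4085 to 5889 FPKM at 2% O2 against 3106 to 4027 FPKM in normoxia in the knockdown, and 2888 to 3606 FPKM against 2215 to 3639 FPKM in the control. The part of these tissues in the changes of the 6 genes was not tested.

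The milder exposure gave no call for any of the 6 genes. At 6% O2 against normoxia 0 of 6 were called in the knockdown, where limma called 0.625% of tested genes. In the control limma also called 0 of 6, with 0% of tested genes called and 1329 genes below an unadjusted p of 0.05. Hph alone of the 6 had all 3 libraries at 6% O2 above all 3 in normoxia in each genotype, a pattern found in 9.03% of tested genes in the knockdown and 8.6% in the control. Its difference was 0.10 in the knockdown (95% interval -0.02 to 0.22, limma adjusted p = 0.82) and 0.17 in the control (95% interval 0.05 to 0.29, limma adjusted p = 0.242). Control sima also did not overlap between 6% O2 and normoxia (0.19, limma adjusted p = 0.166). Between 2% and 6% O2, Hph, Vhl and scyl were called higher and tgo lower in both genotypes, where 51.7% of tested genes were called in the knockdown and 32.1% in the control. Hph was higher at 2% than at 6% O2 by 0.84 in the knockdown and 0.44 in the control, Vhl by 0.67 and 0.57, and scyl by 0.46 and 0.40, with limma adjusted p from 2.03e-08 to 0.000394.

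Set against control flies, knockdown flies had more scyl RNA at every oxygen level. The scyl difference was 0.25 in normoxia (limma adjusted p = 0.0154), 0.29 in 6% O2 (limma adjusted p = 0.00502) and 0.36 in 2% O2 (limma adjusted p = 0.000904), each with SE 0.0621. In normoxia sima was also higher, by 0.21 (SE 0.0541, limma adjusted p = 0.017), so 2 of the 6 genes were called beside 16% of tested genes. In 6% O2 scyl alone was called beside 24.7% of tested genes. In 2% O2 Hph (0.43, SE 0.0576, limma adjusted p = 0.000116) and scyl were called beside 20.2% of tested genes. Both normoxia calls were lost without control normoxia replicate 3 (limma adjusted p = 0.0832 for sima and 0.0822 for scyl) and without knockdown normoxia replicate 1 (0.0566 and 0.0567), and that of scyl also without knockdown normoxia replicate 3 (0.0584).

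The remaining genotype differences within an oxygen level were not called. sima was -0.01 at 6% O2 (95% interval -0.12 to 0.11, limma adjusted p = 0.92) and 0.01 at 2% O2 (limma adjusted p = 0.931). tgo libraries of the knockdown stood above those of the control in normoxia (0.17, limma adjusted p = 0.144) and 6% O2 (0.12, limma adjusted p = 0.252), and those of Hph did so in normoxia (0.10, limma adjusted p = 0.228). Groups stood apart in this direction in 21.5% of tested genes in normoxia and 22.4% in 6% O2. Vhl libraries of the knockdown stood below those of the control in normoxia, as in 19.1% of tested genes (-0.23, SE 0.099, limma adjusted p = 0.116), and overlapped at 2% O2 (limma adjusted p = 0.844). For chrb the 3 differences lay between 0.06 and 0.09, with limma adjusted p of 0.237 or more. Averaged over the oxygen levels, limma called scyl (0.30, SE 0.0359, adjusted p = 1.99e-05) and Hph (0.19, SE 0.0333, adjusted p = 0.000483), where 41.7% of tested genes were called.

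Tissue markers differed between the genotypes as well, in the mean over oxygen levels. In that mean 20.2% of all tested genes were called higher and 21.6% lower in the knockdown. Of the markers, 7 of 9 for eye, 5 of 9 for gut, 5 of 10 for muscle and 3 of 3 tested for trachea were lower in the knockdown, and none of these lists had a marker called higher. Of 9 tested fat body markers 4 were lower and 1 higher, and of 7 female markers 3 were higher and none lower. The summed eye level was 1627 to 2561 FPKM in knockdown libraries and 1861 to 2747 FPKM in control libraries. The summed gut level was 3143 to 5034 FPKM in the knockdown and 3923 to 6686 FPKM in the control, and the muscle level 1934 to 3608 FPKM and 2526 to 5117 FPKM. The summed level of the 7 matched tracheal markers was 21.0 to 32.8 FPKM in the knockdown and 25.6 to 43.0 FPKM in the control. The fat body level was 1290 to 1954 FPKM in the knockdown and 1546 to 2016 FPKM in the control, and the female level 2569 to 5889 FPKM and 2215 to 4585 FPKM. At most 1 fat body marker and no eye, gut, muscle, trachea or female marker was at 0 in any library, and their part in the genotype differences of the 6 genes was not tested.

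Ratios between pairs of these genes within a library do not depend on how libraries were scaled. They were computed after the values had been seen, in 8 exact permutation tests adjusted together by Benjamini-Hochberg. The pairs were chosen with the levels of each gene known, and the adjustment does not cover that choice. The p-values of the ratios come from the same values as the differences given above and are not separate support for them. Hph per sima was 5.90 ± 0.830 at 2% O2 against 3.01 ± 0.0912 in normoxia in the knockdown, and 4.37 ± 0.246 against 3.28 ± 0.149 in the control (SD, n = 3 each). Vhl per sima was 0.749 ± 0.109 against 0.399 ± 0.0375 in the knockdown, and 0.770 ± 0.0677 against 0.554 ± 0.0278 in the control. The inhibitors thus stood higher relative to the alpha subunit at 2% O2 in both genotypes. sima per tgo was 1.10 ± 0.0854 against 0.892 ± 0.0277 in the knockdown, and 1.10 ± 0.0836 against 0.867 ± 0.0506 in the control. scyl per chrb was 3.92 ± 0.201 against 2.95 ± 0.0940 in the knockdown, and 3.18 ± 0.0981 against 2.62 ± 0.0373 in the control. All 4 ratios were higher at 2% O2, with permutations within genotype giving an exact two-sided p of 0.005, the smallest of 400 arrangements, and an adjusted p of 0.008. Their mean log2 differences were 0.69 for Hph per sima, 0.69 for Vhl per sima, 0.32 for sima per tgo and 0.34 for scyl per chrb.

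Between genotypes, scyl per chrb was higher in the knockdown by 0.23 on the log2 scale, with permutations within oxygen level giving an exact p of 0.00025, the smallest of 8000 arrangements, and an adjusted p of 0.002. Vhl per sima differed by -0.22 on that scale over the 3 oxygen levels (exact p = 0.026, adjusted p = 0.0347). By level it was 0.399 in the knockdown against 0.554 in the control in normoxia, with no overlap, 0.462 against 0.507 in 6% O2 and 0.749 against 0.770 in 2% O2, where the libraries overlapped. Neither gene of this pair was called by itself over the oxygen levels (Vhl -0.13, limma adjusted p = 0.0751, and sima 0.07, limma adjusted p = 0.0763). Hph per sima differed by 0.12 (exact p = 0.137) and sima per tgo by -0.03 (exact p = 0.45), and neither passed.

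**Figure D4:**
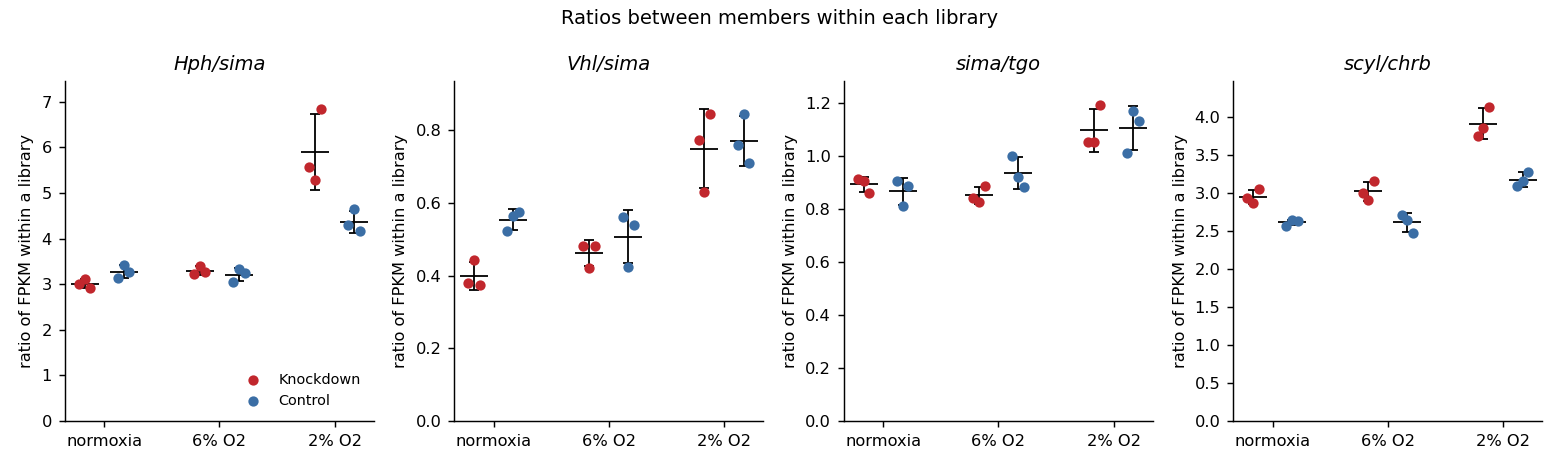
Ratios of FPKM between pairs of the 6 genes within each library by oxygen level, with knockdown in red and control in blue; long lines are group means and bars 1 SD (n = 3). Each ratio is higher at 2% O2 than in normoxia in both genotypes, and scyl per chrb is higher in the knockdown at every oxygen level.

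Of the transcripts of the proteins that work with Vhl, none was called higher at 2% O2. The ligase partners EloB and EloC (adaptors), Cul2 (scaffold), and Roc1a and Roc1b (RING subunits) were all tested, and none was called at 2% O2 against normoxia in the control. In the knockdown Roc1a (-0.16, limma adjusted p = 0.00769) and Roc1b (-0.36, limma adjusted p = 0.0289) were lower, and the other 3 were not called, where 27% of all tested genes were lower. The list median was -0.12 in the knockdown and -0.05 in the control. Cul2 was slightly higher in the knockdown over all oxygen levels (0.12, limma adjusted p = 0.0132).

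Of the 10 listed relatives of Sima and Tango in the bHLH-PAS family, with period and the coactivator taiman, 7 were tested. In the knockdown 3 were higher at 2% O2, namely gce (0.60, limma adjusted p = 0.000769), a juvenile hormone receptor, tai (0.47, limma adjusted p = 0.000642) and cyc (0.19, limma adjusted p = 0.0139), a partner of Clk in the circadian clock. In the control sim, a regulator of the nervous system midline, was higher (0.53, limma adjusted p = 0.00141) and per, the clock repressor, was lower (-0.38, limma adjusted p = 0.0163). None of these responses was called different between the genotypes, with limma adjusted p of 0.0752 or more. Among all tested genes 28.5% were higher and 27% lower at 2% O2 in the knockdown, and 15.4% higher and 14.7% lower in the control.

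Among 7 tested genes reported to act on Sima, 4 were lower at 2% O2 in the knockdown and 3 in the control, and none was called higher, where 27% of all tested genes were lower in the knockdown and 14.7% in the control. pont, which encodes an AAA+ ATPase of chromatin complexes, was lower in the knockdown (-0.52, limma adjusted p = 1.43e-06) and the control (-0.26, limma adjusted p = 0.00199). Its partner rept was at -0.31 in the knockdown and -0.24 in the control, and emb, the exportin that carries Sima out of the nucleus, at -0.32 and -0.22, all called. The list median was -0.31 in the knockdown and -0.08 in the control.

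Of 16 tested HIF-linked transcripts, which include known fly targets of HIF, 11 were higher at 2% O2 in the knockdown and 5 in the control, and none was called lower in either. Over all tested genes 28.5% were higher in the knockdown and 15.4% in the control. ImpL3, which encodes lactate dehydrogenase, averaged 190 ± 33.2 FPKM at 2% O2 against 4.80 ± 0.471 FPKM in normoxia in the knockdown, and 99.6 ± 9.14 FPKM against 6.22 ± 0.629 FPKM in the control (SD, n = 3 each). bnl, the FGF that guides tracheal branches, averaged 17.6 ± 1.90 FPKM against 0.838 ± 0.0779 FPKM in the knockdown, and 10.2 ± 0.784 FPKM against 1.38 ± 0.257 FPKM in the control. In both genes all libraries at 2% O2 were above all in normoxia, and the knockdown libraries at 2% O2 were above the control ones. The first pattern was found in 31.7% of tested genes in the knockdown and 21.9% in the control, the second in 20%. ImpL3 rose by 5.03 in the knockdown and 3.80 in the control, and the responses differed by 1.23 (SE 0.28, limma adjusted p = 0.0186). bnl rose by 3.34 and 2.24, and the responses differed by 1.10 (SE 0.165, limma adjusted p = 0.0015). Pdk, which encodes pyruvate dehydrogenase kinase, rose by 1.03 in the knockdown and 0.46 in the control, with a difference of 0.56 (limma adjusted p = 0.00124). btl, which encodes the receptor of bnl, averaged 0.363 FPKM and was not tested. Set against the control at 2% O2, 4 of the 16 were higher in the knockdown and 3 lower, beside 11.7% and 8.5% of tested genes. In normoxia 0 were higher and 5 lower, beside 5.9% and 10.1%. In the mean over oxygen levels 3 were higher and 5 lower, beside 20.2% and 21.6%. Pgk was among those lower at 2% O2 (-0.34, limma adjusted p = 0.00496) and Hsf among those higher (0.28, limma adjusted p = 0.0107). At 6% O2 ImpL3 was called in the knockdown (1.41, limma adjusted p = 0.00532) and not in the control (1.09, limma adjusted p = 0.104), and the difference of these responses was not called.

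The listed genes of TOR signalling, not all of which act downstream of scyl and chrb, were mixed in direction. Of the 16 tested 4 were higher and 7 lower in the knockdown, and 5 higher and 4 lower in the control, with a median of -0.03 and 0.07. Over all tested genes 28.5% were higher and 27% lower in the knockdown, and 15.4% higher and 14.7% lower in the control. Thor, the translation repressor 4E-BP and also a HIF-linked transcript, rose by 2.21 in the knockdown (limma adjusted p = 3.96e-08) and 1.52 in the control (limma adjusted p = 7.52e-06), and the responses differed by 0.69 (limma adjusted p = 0.0729). REPTOR, a transcription factor held back by TOR, rose by 0.47 and 0.29. Tsc1 fell by 0.47 in the knockdown and 0.25 in the control, gig by 0.44 and 0.22, and Lst8, a subunit of the TOR complexes, by 0.32 and 0.27, all called by limma. raptor rose in the control (0.38, limma adjusted p = 0.00466) and was not called in the knockdown (0.14, limma adjusted p = 0.197).

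**Figure D5:**
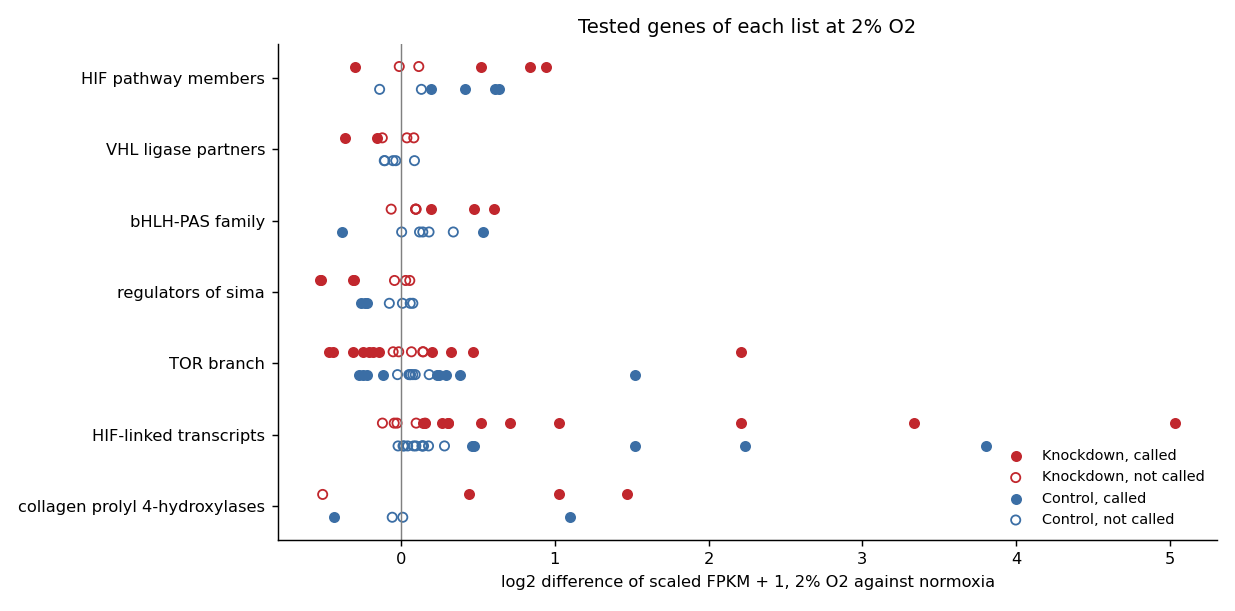
Differences on the log2(scaled FPKM + 1) scale at 2% O2 against normoxia for the tested genes of each list; each point is a gene, red for knockdown and blue for control, filled where limma called it. The 6 HIF pathway genes lie between -0.30 and 0.94, and the HIF-linked transcripts reach 5.03 in the knockdown and 3.80 in the control.

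The genes whose levels followed each member most closely were ranked by the root mean square (RMS) difference of centred log2 levels over the 18 libraries. For Hph these were bmm (0.0505), which encodes a triglyceride lipase and is also on the fat body list, CG11210 (0.0645) and Pdk (0.0705), where the median over all tested genes was 0.41. For Vhl they were CG30022 (RMS 0.104), CG32549 (0.11) and CG31705 (0.11), beside a median of 0.391. For scyl they were Pp1alpha-96A (RMS 0.0792), RabX1 (0.0835) and RhoGAP92B (0.0855), beside 0.331. The flatter genes had closer neighbours, with RMS of 0.0422 for tgo and Patr-1, 0.048 for sima and sws, and 0.0345 for chrb and Tnpo, and lower medians of 0.197 to 0.237. All points share the same 18 libraries, so these values are descriptions.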

How the data were processed

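Poly-dT selected RNA of whole females was read on a BGISEQ-500 sequencer, as the labels' protocols state. The authors deposited 1 table of FPKM per library, with Cufflinks, TopHat2, HTSeq and build BDGP6 named in the submitters' processing notes; versions are not given in the sources used here. FPKM is relative to all transcripts of a library and carries no read total, so no counting intervals are given. All 38 mitochondrial genes are listed at 0 in every library, so a 0 need not mean absence.

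From the deposited FPKM, libraries were scaled by medians of ratios over 9068 genes (factors 0.945 to 1.034). The 9921 genes whose mean FPKM reached 1 entered the fit as log2(FPKM + 1) with limma 3.58.1 in R 4.3.3 (trended, robust, 6 group means, 14 comparisons), with Benjamini-Hochberg adjustment over all of them; fold changes of low genes are understated. Groups came from sample titles and genotypes, and libraries are biological replicates per the labels. Coordinates are 1-based, and 17303 of 17521 matched identifiers had identical coordinates in the annotation used. Of the gene list entries 151 were found and 4 were not. The fit was tested on simulated data. The members and lists were chosen with earlier results of these data known. Text names all 6 members, Tudor-SN, fixed pathway genes, and up to 3 nearest genes per member. From each list it names some, but not all, of the 3 genes with the smallest adjusted p in 3 comparisons. Alternatives were 2 pseudocounts, 2 filters, 2 scalings, a replicate block, array weights, separate fits and leaving out each library.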

Additional observations from a re-analysis of the deposited data

Results flagged for a closer look

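The 2% O2 response of Hph was called different between the genotypes. Hph averaged 168 ± 14.98 FPKM at 2% O2 and 86.7 ± 2.09 FPKM in normoxia in the knockdown, and 124 ± 2.02 FPKM and 80.8 ± 3.12 FPKM in the control (SD, n = 3 each). The interaction term, knockdown response minus control response, was 0.33 on the log2 scale (limma adjusted p = 0.0233), where 7.64% of all tested genes were called. It lost its call without control normoxia replicate 1 (limma adjusted p = 0.0549), control 2% O2 replicate 1 (0.0661), knockdown normoxia replicate 1 (0.0516) or knockdown normoxia replicate 3 (0.0592). Hph also shares 426 exonic bases with CR45033, where its value is uncertain. In the same interaction 3 of 9 tested fat body markers and 2 of 9 gut markers were called higher and 1 of 7 female markers lower, and their part was not tested. Tudor-SN was deeper knocked down at 2% O2 (5.57 FPKM) than in normoxia (19.9 FPKM), which cannot be told apart from a different response to oxygen. All 3 knockdown libraries at 2% O2 were above all 3 control libraries at 2% O2, as in 20% of tested genes.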

How the results depend on the processing

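Of 1476 recomputed differences of the 6 genes, 1384 kept direction and side of the threshold, 20 lost a call, 23 gained one and 49 changed sign, all of the last in differences that were not called. Under array weights 4 of the 6 genes were called in knockdown against control in normoxia, 2 in the difference of 2% O2 responses, 5 in the mean of knockdown against control and 1 in the mean of 6% O2 against normoxia. They also added chrb at 2% O2 against normoxia, for 5 of 6 in each genotype, and sima in the mean of that comparison over genotypes (0.11, limma adjusted p = 0.00807), for 6 of 6. Leaving out 1 library gave 0 to 2 genes for knockdown against control in normoxia, 0 to 1 for the difference of 2% O2 responses, and 2 to 4 for the mean of knockdown against control. Array weights also called more of all tested genes in knockdown against control in normoxia, as given below. For the other counts here the share of all tested genes under the same setting is not given. These counts are therefore not read as results about the 6 genes. The causes were not tested.

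Same-numbered libraries did not deviate together (correlations -0.325 to 0.25, 11 of 45 above 0.1, 3 of 18 libraries closest to their own number). With the replicate block the difference of the Hph responses was 0.33 (limma adjusted p = 0.0337), and the number of the 6 genes called was the same in each of the 14 comparisons (4 in the knockdown and 4 in the control at 2% O2 against normoxia).

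On FPKM as deposited, sign changes gave 0.022 and -0.031 for sima and -0.023 for tgo (sima at 6% and 2% O2, tgo at 2% O2, knockdown against control), -0.068 for sima at 2% against 6% O2 in the knockdown, and -0.003 for both scyl and chrb at 6% O2 against normoxia in the control. Quantile normalisation gave -0.022 for Hph (knockdown against control, 6% O2) and -0.012 for chrb (difference of 6% O2 responses). Array weights gave 0.001 for sima and 0.005 for Vhl (knockdown against control at 6% and 2% O2), 0.012 for sima at 2% O2 against normoxia in the knockdown, 0.015 for sima at 2% against 6% O2 and -0.036 for Vhl at 6% O2 against normoxia in the control, and -0.011 for scyl and -0.067 for chrb in the difference of 6% O2 responses.

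Leaving out 1 library, sima ranged from -0.048 to 0.026 and from -0.026 to 0.049 in knockdown against control at 6% and 2% O2, from -0.036 to 0.027 at 2% O2 against normoxia in the knockdown, and from -0.007 to 0.056 in the knockdown and -0.041 to 0.035 in the control at 2% against 6% O2. In knockdown against control, tgo ranged from -0.06 to 0.117 and Vhl from -0.083 to 0.055 at 2% O2, and Hph from -0.003 to 0.068 at 6% O2. At 6% O2 against normoxia, chrb ranged from -0.021 to 0.063 in the knockdown, and Vhl from -0.045 to 0.173, scyl from -0.036 to 0.055 and chrb from -0.032 to 0.059 in the control, with -0.004 to 0.041 for chrb over both genotypes. Differences of responses ranged from -0.05 to 0.03 for chrb at 2% O2, and from -0.035 to 0.056 for chrb and -0.006 to 0.212 for Vhl at 6% O2.

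Over all tested genes, the share of calls that were higher moved with the scaling. In the knockdown at 2% O2 against normoxia it was 51.4%, with 41.3% on FPKM as deposited and 38% by quantile normalisation. For the difference of 2% O2 responses it was 71.1%, 58.8% and 43.8%, and for knockdown against control at 2% O2 57.8%, 43.6% and 47.1%. For knockdown against control in normoxia quantile normalisation gave 54.3% in place of 36.8%. Array weights called 1507 genes higher and 1896 lower there, against 585 and 1004 with equal weights. FPKM without read totals limits what can be said of low genes such as CR45033 and bnl in normoxia.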

Other observations

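Hph belongs to a wider class of iron and 2-oxoglutarate dioxygenases, and 9 genes annotated as collagen prolyl 4-hydroxylases, or in the case of Plod as a lysyl hydroxylase, were listed beside it, of which 4 were tested. PH4alphaEFB, whose enzyme modifies collagen IV, rose at 2% O2 by 1.47 in the knockdown (limma adjusted p = 5.06e-06) and by 1.10 in the control (limma adjusted p = 0.000237). Plod averaged 64.8 ± 12.1 FPKM at 2% O2 and 46.9 ± 2.18 FPKM in normoxia in the knockdown, and 37.7 ± 2.51 FPKM and 51.2 ± 3.30 FPKM in the control (SD, n = 3 each). Plod thus rose in the knockdown (0.44, limma adjusted p = 0.00339) and fell in the control (-0.43, limma adjusted p = 0.00823), and the responses differed by 0.88 (limma adjusted p = 0.00481). PH4alphaSG2 stood at or below 0.362 FPKM in every control library and between 0.794 and 4.39 FPKM in the knockdown libraries. Of the 5 listed subunits of soluble guanylyl cyclases, 2 were tested, Gycalpha99B and Gycbeta100B. Neither was called at 2% O2 in the knockdown or the control. Gyc88E, Gyc89Da and Gyc89Db, the listed subunits that sense oxygen in fly neurons, did not pass the filter and were not tested.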
